A study of Cynoglossus semilaevis with 30 samples.

Results

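A set of 6 genes of growth hormone and insulin-like signalling was followed through 5 tissues of the tongue sole Cynoglossus semilaevis, a flatfish in which females are known to outgrow males. They were chosen by name, as 6 of the 22292 genes of the deposited table: the growth hormone receptor gene ghr (gene number ncbi-103397680, RefSeq symbol ghra), a growth hormone receptor-like gene (ncbi-103389092, ghr-like below), the insulin-like growth factor 1 receptor gene igf1r (ncbi-103379307, RefSeq igf1rb), the suppressor of cytokine signalling genes socs3 (ncbi-103392817, RefSeq socs3a) and socs3-like (ncbi-103381769), and the insulin receptor substrate gene irs2 (ncbi-103392135, RefSeq irs2b). The choice was made with earlier results of these data known, so how many of the 6 passed is no test of the set. The series compared large with small females, all 1.7 years old, in brain, pituitary, liver, gonad and muscle. Each of the 10 groups (large and small females in each tissue) had 3 libraries, and a library pooled the RNA of 2 fish, so that the spread between libraries is one between pools. The series counts 6 fish per size class. The labels give no strain, treatment, body weight or tie between fish across tissues.

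Growth hormone from the pituitary binds its receptor, chiefly in liver and muscle, and the receptor works through the kinase JAK2 and the transcription factor STAT5, which in vertebrates drive the gene of insulin-like growth factor 1 (IGF-1). IGF-1 and insulin bind receptors that are themselves kinases and that pass the signal through insulin receptor substrates to PI3 kinase and AKT, which hold back FOXO transcription factors. SOCS proteins are induced by such signals and by cytokines and close the loop by blocking the receptors and their kinases. Bony fish often carry duplicated copies of these genes. The reads of a gene and its near copy may have been split between them by the authors' counting, although 0 of the 180 estimated counts of the 6 genes had a fraction.

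Library totals ran from 6130672 to 10504901 counts. A count of 0 in a library allows a level of up to 0.286 to 0.489 counts-per-million (CPM), which is 3 counts and covers counting error only. In small pituitary, large gonad and small muscle the 3 libraries were nearly alike, with a chi-square per gene between libraries of 1.70 to 1.85, 1.94 to 2.48 and 1.78 to 1.92, against 5.52 to 46.3 in the other 7 groups. These differences exceed counting noise, and the libraries were counted as 3 samples each. Whether they are separate pools of fish is not known, so the number of independent samples in these groups may be under 3. The labels do not say which fish entered which library, and the p-values there measure this small spread. Each tissue carried its own marker genes, with pvalb at 0 counts in muscle as the exception, and several libraries also carried those of other tissues. The second large pituitary library held 433 FPKM (fragments per kilobase, scaled to library size) of muscle markers, against 6.37 to 9.30 in the other 5. Where a comparison is touched by such RNA, values of marker lists stand beside it, though not of every list.

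Liver and gonad lay at opposite ends of the tissue order for the growth hormone receptor genes and for igf1r. In FPKM, the scale on which genes and tissues are compared here, ghr averaged 11.6 ± 2.63 in liver, 3.65 ± 1.11 in pituitary, 3.57 ± 0.98 in muscle and 1.72 ± 0.49 in brain (SD, n = 6 libraries each). In gonad it had 0.12, 0.05 and 0.08 FPKM in the large libraries and 0 in all 3 small libraries, 9 counts in all. Liver was the tissue of highest ghr, with a lowest library of 8.06 FPKM above the highest of any other tissue, 5.07 FPKM in pituitary.

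The ghr-like gene followed the same order at its ends. It averaged 6.39 ± 3.06 FPKM in liver, 2.48 ± 1.81 in muscle, 2.39 ± 1.06 in pituitary, 1.59 ± 0.40 in brain and 0.135 ± 0.145 in gonad (SD, n = 6 each). Across the 30 libraries the log2 (FPKM + 1) levels of both receptor genes had a Pearson r of 0.86, a description over points that share tissue, since they form 5 tissue groups. In muscle the range was wide, 0.78 to 4.42 FPKM, and it divided by size class, as described further on.

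The receptor for IGF-1 itself was highest where the growth hormone receptors were lowest. For igf1r the mean was 2.42 ± 0.43 FPKM in gonad, 2.27 ± 0.46 in pituitary, 1.21 ± 0.29 in brain, 0.505 ± 0.225 in muscle and 0.108 ± 0.059 in liver (SD, n = 6 each). The 6 liver libraries held 2 to 12 igf1r counts each. Its r with ghr over the 30 libraries was -0.70 and with ghr-like -0.64. Gonad and pituitary, the top of this order, did not differ beyond their spread. Their log2 difference was 0.34, with an adjusted p of 0.163 (edgeR's quasi-likelihood test over 30 libraries, Benjamini-Hochberg adjustment over 19511 genes). Log2 differences between tissues given with edgeR are on its own scale, in which libraries are scaled by TMM, and are not ratios of FPKM.

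**Figure D1:**
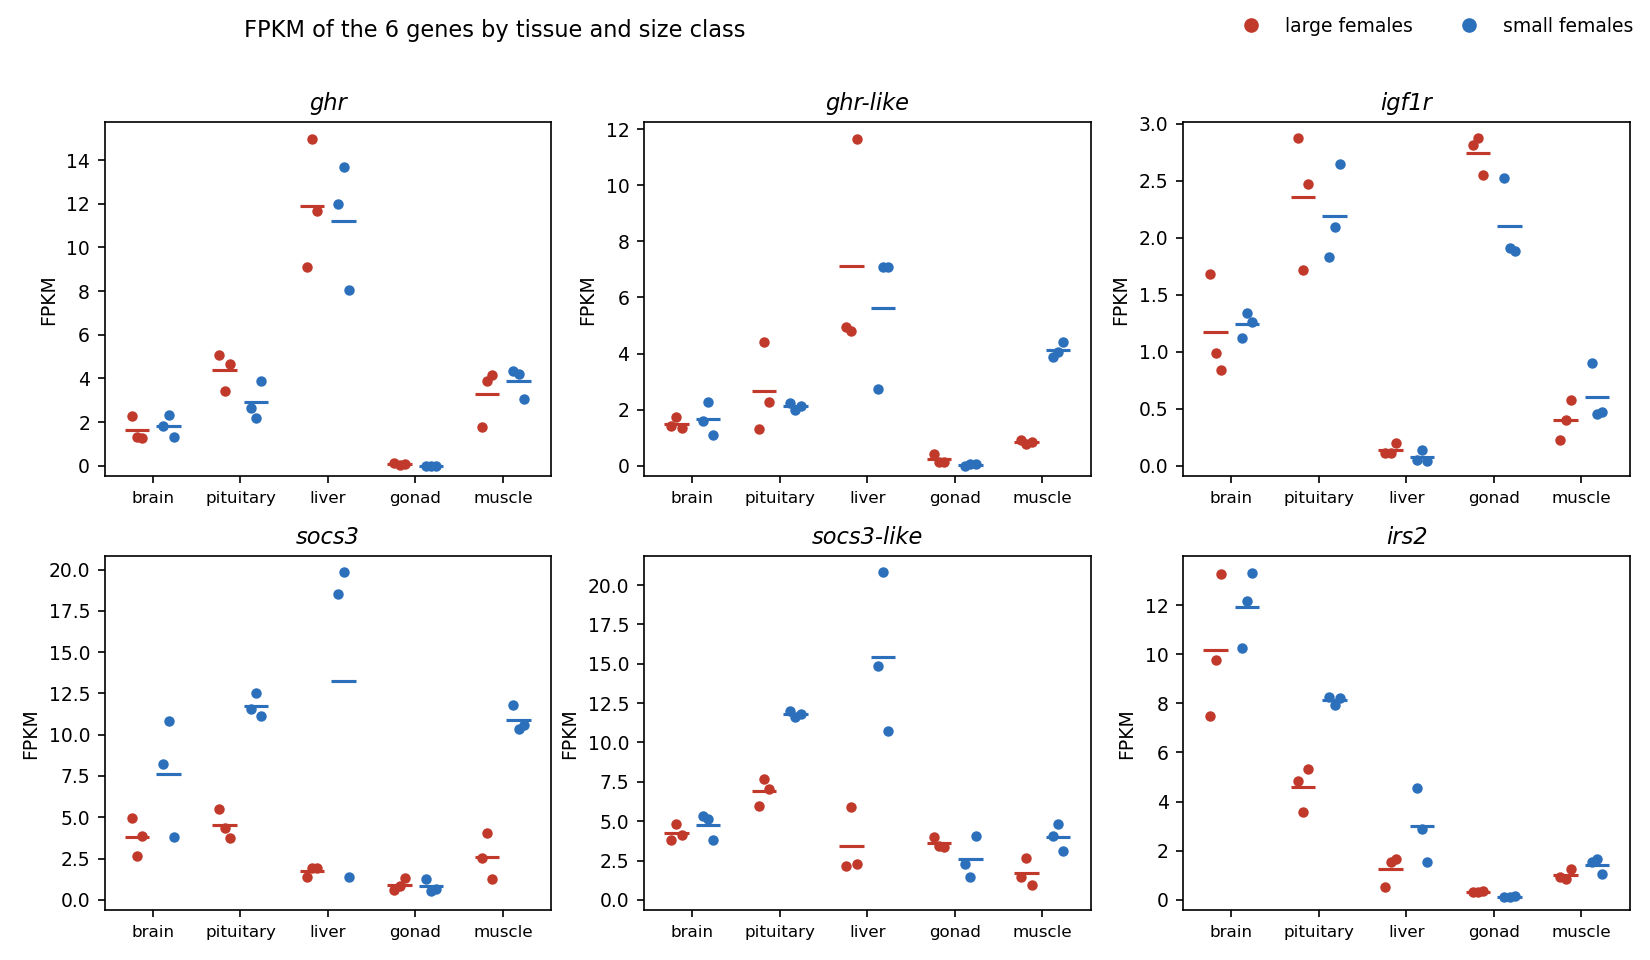
FPKM (vertical axis) of each gene in the 30 libraries by tissue (horizontal axis), with large females in red to the left of small females in blue; points are libraries and bars the means of 3. The 3 large muscle libraries of ghr-like sit between 0.78 and 0.91 and the 3 small between 3.88 and 4.42, and 1 small liver library of socs3 sits at 1.39 below the other 2.

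Among the feedback genes, socs3 was spread widely over tissues and within them. Its FPKM ran from 3.75 to 12.5 in pituitary, from 1.39 to 19.8 in liver, from 1.24 to 11.8 in muscle and from 2.63 to 10.8 in brain, with medians of 8.34, 1.91, 7.19 and 4.41. Gonad was lowest, with 0.52 to 1.34 FPKM, and stood apart from brain by a log2 difference of 2.27 (adjusted p = 6.58e-06, edgeR). The socs3-like gene averaged 9.45 ± 7.46 FPKM in liver, 9.36 ± 2.75 in pituitary, 4.51 ± 0.67 in brain, 3.09 ± 1.03 in gonad and 2.85 ± 1.47 in muscle (SD, n = 6 each). In gonad it had the highest mean FPKM of the 6 genes, with libraries from 1.44 to 4.06.

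The adaptor gene irs2 was highest in brain. It had 7.49 to 13.3 FPKM there (median 11.2), against 3.58 to 8.26 in pituitary, 0.52 to 4.56 in liver, 0.83 to 1.66 in muscle and 0.10 to 0.36 in gonad. With TMM, brain exceeded pituitary by a log2 difference of 0.78 (adjusted p = 0.00264, edgeR), and liver exceeded muscle by 0.78 (adjusted p = 0.0053). Muscle exceeded gonad by 4.16 with TMM (adjusted p = 6.25e-13, edgeR), against 2.44 as the log2 ratio of the FPKM means. Such differences are common: of all 19511 genes, 60.2% differed between brain and pituitary, 69.2% between brain and liver, 74.8% between brain and muscle and 87.2% between brain and gonad. Pituitary differed from liver in 66.1%, from muscle in 73.7% and from gonad in 84.3%, liver from muscle in 63.2% and from gonad in 78.1%, and gonad from muscle in 78.3%.

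The order of liver and muscle against the other tissues depends on how libraries are scaled. A few genes took a large share of the counts there, and the TMM scaling factors were 0.289 to 0.630 in liver and 0.403 to 0.565 in muscle, against 1.23 to 2.05 in the other 3 tissues. Scaling by library totals in place of TMM moved the median gene by 2.01 log2 units in brain against liver and by 1.91 in brain against muscle. Several neighbours in the FPKM order therefore changed places: ghr in pituitary against muscle stood at a log2 difference of -1.84 with TMM (adjusted p = 6.22e-09) and 0.01 with totals (0.993), and irs2 in pituitary against liver at -0.27 (0.30) and 1.66 (1.57e-07). For igf1r, brain against muscle stood at -0.66 with TMM (adjusted p = 0.0194, edgeR) and 1.28 with totals (3.66e-05). The lead of liver for ghr over pituitary held both ways, at 3.64 with TMM (adjusted p = 3.12e-14) and 1.69 with totals (1.16e-07). The low gonad levels of ghr, ghr-like, socs3 and irs2 also held both ways.

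Near copies were compared per length. For ghr over ghr-like, the mean log2 ratio of (FPKM + 0.1) was 0.95 ± 0.80 in liver, 0.82 ± 1.14 in muscle, 0.62 ± 0.79 in pituitary, 0.10 ± 0.34 in brain and -0.61 ± 0.40 in gonad (SD, n = 6 each). For socs3 over socs3-like it was 0.996 ± 0.554 in muscle, where socs3 was higher in 6 of 6 libraries, and -1.72 ± 0.71 in gonad, where it was higher in 0 of 6. Both had p = 0.0312 in an exact sign-flip permutation test (two-sided), the smallest p that 6 libraries allow, and an adjusted p of 0.156 over the 10 ratios tested. None of the 10 ratios passed after adjustment.

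The size classes were then compared within each tissue. From here on, values within a tissue are CPM scaled by TMM, the scale of the test, and differences are log2 of large over small. The 6 genes did not move as a block: the SOCS3 genes, irs2 and ghr-like passed the test in 1 to 3 tissues each with edgeR, and ghr and igf1r in 0. At an unadjusted p under 0.05, ghr had 1 tissue (liver, which DESeq2 called) and igf1r 0. In bulk tissue, fewer cells of a type and less RNA per cell cannot be told apart.

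**Figure D2:**
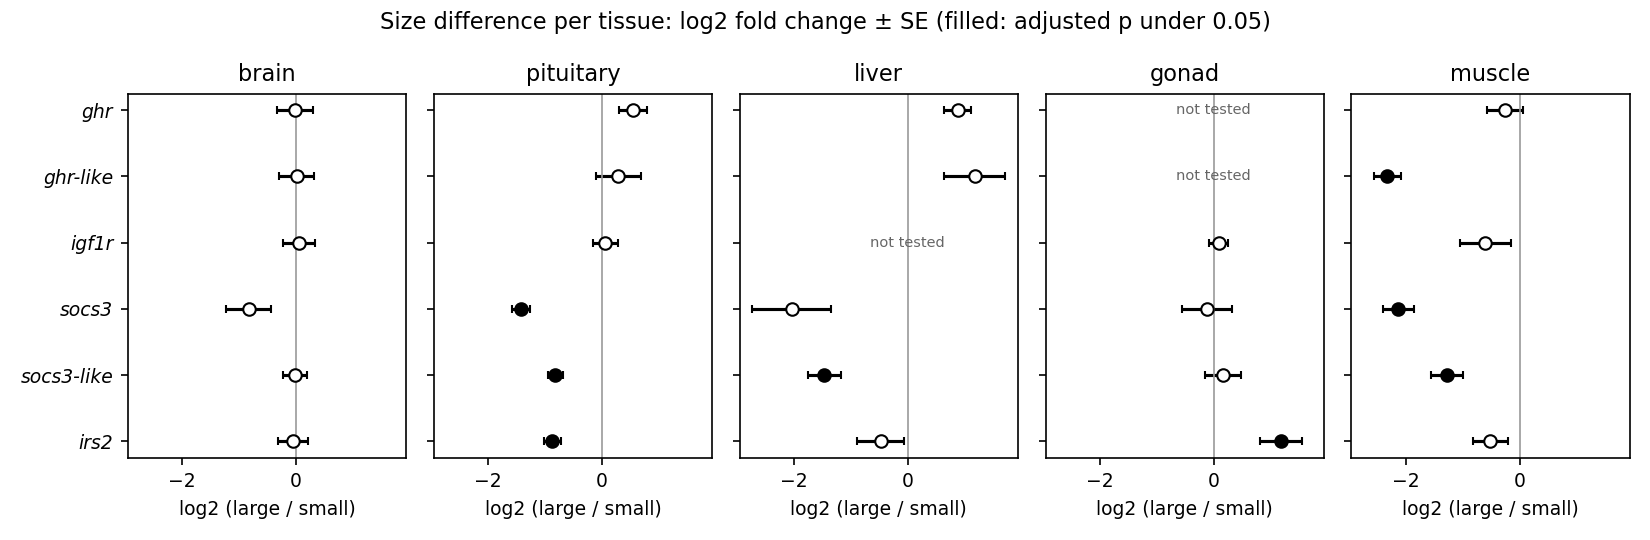
Log2 fold change of large over small females (horizontal axis) for each gene in each tissue, with its standard error; filled points have an adjusted p under 0.05 in edgeR's quasi-likelihood test. The 7 filled points left of 0 are ghr-like in muscle, socs3 in pituitary and muscle, socs3-like in pituitary, liver and muscle, and irs2 in pituitary, and the 1 filled point right of 0 is irs2 in gonad.

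In muscle, the ghr-like receptor gene was lower in large females. It had 3.20, 2.25 and 3.40 CPM in large muscle, against 13.6, 14.2 and 15.7 CPM in small muscle. Every large library lay below every small one, in a tissue where the groups did not overlap in 43.5% of the genes tested, and the difference was -2.32 ± 0.23 (SE), 5.0-fold lower (adjusted p = 0.00102, edgeR's quasi-likelihood test on 3 against 3 libraries, Benjamini-Hochberg adjustment over 13301 genes). Meanwhile ghr had 6.65, 11.8 and 17.6 CPM in large muscle, against 16.1, 15.4 and 11.4 CPM in small muscle, groups that overlapped (-0.26 ± 0.32, adjusted p = 0.591). In the same libraries the ratio of ghr to ghr-like in FPKM was 1.97, 4.97 and 4.93 in large muscle, against 1.12, 1.03 and 0.69 in small muscle. These ratios did not overlap. The exact permutation test (two-sided) gave p = 0.10, with an adjusted p of 0.333 over the 10 comparisons of this kind. A p of 0.10 is the smallest that 3 against 3 libraries allow and lies above the threshold, so the test could not pass. The receptor for IGF-1 had 1.48, 2.17 and 4.37 CPM in large muscle, against 5.83, 2.92 and 3.05 CPM in small muscle (-0.60 ± 0.45, adjusted p = 0.364).

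Both SOCS3 genes were lower in large muscle as well. For socs3, large muscle had 5.17, 6.74 and 2.91 CPM, against 24.0, 21.0 and 21.8 CPM in small muscle. The groups lay far apart, with a difference of -2.13 ± 0.27, 4.37-fold lower (adjusted p = 0.00223, edgeR). For socs3-like, large muscle had 4.07, 6.08 and 3.08 CPM, against 11.2, 13.1 and 8.58 CPM in small muscle, again without overlap (-1.27 ± 0.29, 2.42-fold lower, adjusted p = 0.0131, edgeR). In both genes the second large library was the highest of its group. Muscle irs2 overlapped between the classes, with 6.16, 4.58 and 9.55 CPM in large and 10.3, 11.1 and 7.11 CPM in small muscle (-0.51 ± 0.30, adjusted p = 0.246). So 3 of the 6 genes passed, all lower in large muscle. Of the 13301 genes tested, 10.4% were lower and 13.1% higher, which is a background and no test of the chosen set.

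In the wider pathway in muscle, the genes that passed were mostly lower in large females. Their numbers are to be read against all muscle genes tested, of which 10.4% were lower and 13.1% higher. Of the SOCS family and other regulators of these signals, 6 of 20 tested were lower and 0 higher. The list also holds adaptor and phosphatase genes, not all of which are brakes. Its median was -0.55 against 0.03 over all genes. Without socs3 and socs3-like, 4 of 18 were lower. They included cish, a SOCS family gene induced by STAT5 in mammals, at 6.31 ± 0.69 FPKM in large and 13.1 ± 1.14 FPKM in small muscle (SD, n = 3 each; log2 difference -1.08, adjusted p = 0.00412), and ptpn11, socs6 and sh2b1. Of the receptors, 3 of 6 tested were lower (2 of 3 without ghr, ghr-like and igf1r): ghr-like, igf2r, whose product carries IGF-2 to lysosomes in mammals (-1.59, adjusted p = 0.00188), and the insulin receptor-like gene LOC103393515 (-1.504, adjusted p = 0.0462, 0.107 ± 0.055 FPKM in large and 0.293 ± 0.072 FPKM in small muscle). The JAK and STAT list had 3 lower of 13: stat3, at 20.4 ± 2.45 FPKM in large and 49.5 ± 2.02 FPKM in small muscle (-1.33, adjusted p = 0.0019), the stat5B-like gene LOC103381659 (-1.37, adjusted p = 0.00398) and jak1 (-0.98, adjusted p = 0.00601).

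Downstream of the receptors in muscle, 9 of 30 tested genes of the IRS, PI3K, AKT and FOXO list were lower in large females and 1 higher, with a median of -0.68. The lower ones were the PI3 kinase subunit gene pik3r1 (-1.60, adjusted p = 0.00175), the insulin receptor substrate 1-like gene LOC103386951 (-1.49, adjusted p = 0.00327), the FOXO genes foxo1 (-2.09, adjusted p = 0.0242) and foxo3 (-0.78, adjusted p = 0.0345), and tsc1a, tsc2, ptena, rictor and trib1. Thus the list held genes that pass the signal on and genes known to oppose it, such as ptena and tsc2, on the same side. The foxo1 value rests on few counts, 12 in large and 48 in small muscle. The 1 higher gene, the irs2-B-like gene LOC103389324, had 10.3 ± 8.65 FPKM in large and 2.14 ± 0.38 FPKM in small muscle (2.15, adjusted p = 0.00839), and it had 196.8 ± 6.28 FPKM in large and 164.0 ± 27.3 FPKM in small gonad (SD, n = 3 each). Among ligands and targets 3 of 7 were lower and 0 higher: igf1, at 0.740 ± 0.036 FPKM in large and 1.63 ± 0.26 FPKM in small muscle (-1.23, adjusted p = 0.0236), the IGF binding protein gene igfbp1a (-2.68, adjusted p = 0.00327) and igfbp2 (-1.80, adjusted p = 0.0322). The list of cytokine receptors and STAT3 targets had 6 of 12 lower, namely il6st, il11ra, cebpb, pim1, pim3 and fosl2, and 1 higher, junbb, at 23.2 ± 6.01 FPKM in large and 10.3 ± 0.76 FPKM in small muscle (1.12, adjusted p = 0.00366).

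Markers of other tissues differed between the muscle groups too, beside the 10.4% of all muscle genes that were lower and 13.1% that were higher. The 10 ovary markers summed to 290.2 to 691 FPKM in large and 134 to 148 FPKM in small muscle, none was at 0 counts, and 8 of the 9 tested were higher in large muscle. The 11 blood markers summed to 2492 to 3402 FPKM in large and 4992 to 5152 FPKM in small muscle, and 5 of the 5 tested were lower; 3 of the 11 were at 0 counts in large and 4 in small muscle. The 5 pancreas markers summed to 14.2 to 62.3 FPKM in large and 90.1 to 96.5 FPKM in small muscle, with 2 of 4 tested lower, and the 13 liver markers to 148.5 to 2183 FPKM in large and 1685 to 1738 FPKM in small muscle, with 0 of 12 past the edgeR test, adjusted or not. The 9 immune markers summed to 432.9 to 828.7 FPKM in large and 404.5 to 423.1 FPKM in small muscle, with mpeg1 at 0 counts in both and 1 of 8 tested lower. The 10 brain markers summed to 48.9 to 70.9 FPKM in large and 77.1 to 84.6 FPKM in small muscle, with 1 of 5 tested lower and gad1 and elavl3 at 0 counts in both, and elavl4 in large muscle. The part of these in the muscle results was not tested. With the 3 nearly alike small libraries summed to 1, an arm of 1 sample in which 0 of all genes passed, the adjusted p was 0.139 for ghr-like, 0.186 for socs3 and 0.252 for socs3-like. The call of socs3-like also ended without small library 1 (adjusted p = 0.0526) or 2 (0.0652) and on FPKM with limma (0.0565), whereas those of ghr-like and socs3 held without any 1 library.

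In pituitary, socs3, socs3-like and irs2 were lower in large females, while the receptor genes were not found to differ. For socs3 the large libraries had 10.7, 8.64 and 7.66 CPM, against 23.9, 25.8 and 22.7 CPM in the small libraries. All large values lay below all small ones, as the groups did not overlap in 29.5% of the genes tested (-1.42 ± 0.16, 2.68-fold lower, adjusted p = 0.00322, edgeR). The socs3-like gene had 15.6, 20.6 and 19.5 CPM in large pituitary, against 33.6, 32.4 and 32.3 CPM in small pituitary (-0.82 ± 0.13, 1.77-fold lower, adjusted p = 0.0113, edgeR). For irs2, 30.9, 23.4 and 35.7 CPM in large pituitary stood against 56.1, 53.9 and 55.0 CPM in small pituitary (-0.87 ± 0.15, 1.83-fold lower, adjusted p = 0.0142, edgeR). The small libraries lay close together in all 3 genes, as they did over all genes. In pituitary 3.40% of the 15668 genes tested were lower in large females and 2.42% higher. Of the 6 chosen genes 3 passed, all lower, again without a test of the set.

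The receptors in pituitary overlapped between the classes. For ghr, large pituitary had 17.9, 12.4 and 17.2 CPM, against 9.95, 8.25 and 14.3 CPM in small pituitary (0.55 ± 0.24, adjusted p = 0.219, edgeR). Without large library 2, the one with muscle markers, the difference was 0.70 (adjusted p = 0.0415). That library was also the highest of the 6 for ghr-like, which had 4.34, 15.2 and 8.04 CPM in large and 8.02, 7.01 and 7.52 CPM in small pituitary (0.28 ± 0.40, adjusted p = 0.717; -0.28 without it). The gene igf1r had 17.7, 10.9 and 16.1 CPM in large and 12.0, 13.7 and 17.2 CPM in small pituitary (0.06 ± 0.22, adjusted p = 0.90).

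Among the other pituitary genes of the pathway, the ligand gene of the growth hormone receptors was lower in large females. The list counts here stand beside 3.40% of all pituitary genes lower and 2.42% higher. Growth hormone, gh1, had 15640 ± 4749 FPKM in large and 34220 ± 1352 FPKM in small pituitary (SD, n = 3 each; -1.18 ± 0.18, adjusted p = 0.00878). It was 1 of 3 lower genes among 14 tested ligands and targets, with igfbp1a (-1.31, adjusted p = 0.0114) and igfbp6b (-1.97, adjusted p = 0.0226), whose product the table names as an IGF binding protein of another number. The SOCS list had 2 lower of 23, which were socs3 and socs3-like. Next by p were pias4, whose product attaches SUMO and inhibits STATs in mammals (-0.39, adjusted p = 0.0509), and cish, at 34.4 ± 5.43 FPKM in large and 23.6 ± 0.87 FPKM in small pituitary (0.50, adjusted p = 0.0624). With irs2, 2 pseudokinase genes of the tribbles family were the 3 lower of 34 on the IRS list: trib1 (-1.37, adjusted p = 0.0017) and trib2 (-0.76, adjusted p = 0.0249). Of 11 cytokine receptors and STAT3 targets, cebpd, a transcription factor gene induced by STAT3 in mammals, was lower at 45.9 ± 9.75 FPKM in large and 129.6 ± 7.72 FPKM in small pituitary (-1.54, adjusted p = 0.00209), while junbb (1.94, adjusted p = 0.0027) and fosl2 (1.30, adjusted p = 0.00358) were higher. Of the 9 receptors tested, the prolactin receptor-like gene LOC103389689 was higher (0.66, adjusted p = 0.0437), and of 13 JAK and STAT genes 0 passed with edgeR or DESeq2 and 2 had an unadjusted p under 0.05, among them the JAK2-like gene LOC103397589 (-0.27, adjusted p = 0.163).

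Foreign markers in pituitary also differed, beside the same 3.40% of all genes lower and 2.42% higher. The 10 brain markers summed to 431 to 632 FPKM in large and 289 to 299.5 FPKM in small pituitary, with 1 of 5 tested higher, and the 11 blood markers to 501 to 686 FPKM in large and 934 to 991 FPKM in small pituitary, with 3 of 5 tested lower. The 9 immune markers summed to 627 to 1416 FPKM in large and 595 to 601 FPKM in small pituitary, with mpeg1 at 0 counts in both and 1 of 7 tested lower. The 13 liver markers summed to 67.2 to 400.2 FPKM in large and 142 to 158 FPKM in small pituitary, with 4 of 11 tested lower and ttr at 0 counts in large. The 5 pancreas markers summed to 11.3 to 14.8 FPKM in large and 17.6 to 19.7 FPKM in small pituitary, with 1 of 4 tested lower and ins at 0 counts in large. Their part in the pituitary results was not tested. The calls of socs3, socs3-like and irs2 held without large library 2 (adjusted p of 0.000239, 0.000643 and 0.00044), but those of socs3-like and irs2 ended without any 1 of the small libraries (0.0747 to 0.0895), and all 3 ended when all 30 libraries shared 1 estimate of the spread (0.132 to 0.17).

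In liver, socs3-like was lower in large females, and it was the 1 gene of the 5 tested that passed. It had 9.57, 15.0 and 9.13 CPM in large liver, against 28.5, 39.3 and 26.4 CPM in small liver. The groups did not overlap, and the difference of -1.47 ± 0.29 was 2.77-fold lower (adjusted p = 0.0476, edgeR), just inside the threshold. For socs3 the large libraries had 4.69, 3.59 and 5.70 CPM, against 26.4, 27.7 and 2.54 CPM in the small libraries. The third small library lay below all the large ones, and the difference of -2.04 ± 0.69 had an adjusted p of 0.154. Without that library it was -2.55 with an adjusted p of 0.00135. Of the 11878 genes tested in liver, 0.581% were lower in large females and 0.732% higher.

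The growth hormone receptors stood higher in large liver on the scale of the test, without passing it. For ghr, 54.9, 51.2 and 63.6 CPM in large liver lay above 31.0, 34.7 and 26.7 CPM in small liver (0.88 ± 0.23, adjusted p = 0.0958, edgeR), in a tissue where the groups did not overlap in 25.9% of the genes tested. In FPKM, which carries no such scaling, ghr had 9.08, 15.0 and 11.7 in large and 12.0, 13.7 and 8.06 in small liver, so that the groups overlapped. Over all liver genes the FPKM scale moved the median difference by -0.61 (pseudocount of 1), so changes in liver are relative to that shift. The ghr-like gene had 28.3, 15.6 and 60.5 CPM in large and 6.74, 17.1 and 22.3 CPM in small liver (1.18 ± 0.54, adjusted p = 0.257). Liver irs2 was at 5.66, 9.51 and 16.3 CPM in large and 21.3, 13.2 and 9.25 CPM in small liver (-0.48 ± 0.42, adjusted p = 0.552). With 25 counts in large and 13 in small liver, igf1r was too low to be tested.

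The list counts in liver stand beside 0.581% of all liver genes lower and 0.732% higher. On the SOCS list in liver, cish went the other way from socs3-like. It had 15.8 ± 3.73 FPKM in large and 3.74 ± 0.96 FPKM in small liver (SD, n = 3 each; 2.95 ± 0.38, adjusted p = 0.0094), and it was the 1 higher gene of 22 tested. The 2 lower ones were socs3-like and grb10, an adaptor that restrains insulin signalling in mammals (-2.09, adjusted p = 0.03). Of 12 cytokine receptors and STAT3 targets, cebpd, at 9.91 ± 6.09 FPKM in large and 92.4 ± 40.3 FPKM in small liver (-2.49, adjusted p = 0.0298), and il11ra (-1.60, adjusted p = 0.0423) were lower. Among 9 ligands and targets igfbp4 was lower (-2.47, adjusted p = 0.0427), and igfbp1a stood at -3.58 ± 0.95 (adjusted p = 0.0946). These rest on 11 and 12 counts in large liver, against 100 and 270 in small liver. In the lists of 5 receptors, 13 JAK and STAT genes and 31 genes of the IRS branch, 0 passed with edgeR, while 2, 5 and 4 had an unadjusted p under 0.05 and 1, 3 and 2 passed with DESeq2.

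Liver libraries carried pancreas markers in unequal amounts, 27800 to 80530 FPKM over 5 genes in large and 6884 to 37740 FPKM in small liver, with ins at 0 counts in both groups. Of the 4 tested, 0 passed with edgeR, 4 had an unadjusted p under 0.05 and 3 passed with DESeq2. The 11 blood markers summed to 961 to 1661 FPKM in large and 169.5 to 1043 FPKM in small liver. Of 5 tested, 0 passed with edgeR, 2 had an unadjusted p under 0.05 and 2 passed with DESeq2. In large liver library 2 the 10 brain markers summed to 61.9 FPKM. In small liver the 7 pituitary markers reached 110 FPKM (library 1) and the 9 muscle markers 92.4 FPKM (library 2). The part of these markers in the liver results was not tested. The socs3-like call held without small library 3 (adjusted p = 0.0133) and ended without any 1 of the other 5 (0.0629 to 0.217), whereas socs3 and ghr passed with DESeq2 (0.0316 and 0.0364).

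The ovary, labelled gonad, held little of the growth hormone receptors. There ghr had 4, 2 and 3 counts in large and 0 in each small library. With 3 counts over the small group as the floor, its level was 2.4-fold higher in large gonad on the TMM scale. This takes the 9 large counts as exact, so it is not a lower bound. The ghr-like gene had 13, 5 and 5 counts in large and 0, 2 and 2 in small gonad, a ratio of 4.59 on that scale with an exact 95% interval of 1.57 to 18.3. That interval covers counting error only, and neither gene had enough counts for the edgeR test. By contrast igf1r had 16.4, 16.6 and 14.6 CPM in large and 17.1, 14.5 and 13.3 CPM in small gonad, with little spread and a difference of 0.08 ± 0.16 (adjusted p = 0.738).

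The adaptor irs2 was higher in large gonad, at a low level. It had 2.01, 1.82 and 2.15 CPM in large gonad, against 0.729, 0.822 and 1.05 CPM in small gonad, without overlap, as in 45.9% of the genes tested. These values rest on 66 and 23 counts, and the difference was 1.19 ± 0.37, 2.28-fold higher (adjusted p = 0.0422, edgeR), in a tissue where 10.9% of the 14123 genes tested were higher and 13.5% lower. Among the settings that ended the call were DESeq2 (adjusted p = 0.118), a fit without the filter on low counts (0.0741) and leaving out any 1 library other than small library 3 (0.0752 to 0.16). For socs3, 1.11, 1.47 and 2.41 CPM in large gonad overlapped 2.71, 1.23 and 1.47 CPM in small gonad (-0.12 ± 0.44, adjusted p = 0.859), and for socs3-like 9.86, 8.41 and 8.09 CPM overlapped 6.56, 4.66 and 12.2 CPM (0.16 ± 0.32, adjusted p = 0.746).

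The pathway genes that passed in gonad were all higher in large females, in numbers to be read against the 10.9% of all gonad genes that were higher. The SOCS list had 3 higher of 20: socs6, ptpn11 and grb14. Of these, socs6 had 1.04 ± 0.19 FPKM in large and 0.230 ± 0.000 FPKM in small gonad (SD, n = 3 each). Its log2 difference was 1.86 (adjusted p = 0.00466, edgeR), and that of ptpn11 was 0.94 (adjusted p = 0.0117). The gene grb14 had 42 counts in large and 0 in small gonad (adjusted p = 0.00408, edgeR). It was 11.2-fold higher on the same scale and floor, with the 42 counts taken as exact. The IRS list had 4 higher of 27, which were ptena (1.42, adjusted p = 0.0217), pik3r3 (1.14, adjusted p = 0.0318), tsc1 (0.64, adjusted p = 0.0116) and irs2. Higher too were stat3 (0.51, adjusted p = 0.0148), 1 of 11 JAK and STAT genes, and il6st (2.001, adjusted p = 0.00408), hif1a (0.60, adjusted p = 0.0241) and the leptin receptor gene lepr (0.41, adjusted p = 0.043) among 10 cytokine receptors and STAT3 targets. Of 5 receptors and 8 ligands and targets, 0 passed with edgeR or DESeq2 and 0 and 1 had an unadjusted p under 0.05, with 1.01 for igf3 (adjusted p = 0.074). On the FPKM scale (pseudocount of 1) the median difference over gonad genes moved by 0.30, so FPKM values overstate the rises there relative to the test. The 10 ovary markers summed to 5289 to 5454 FPKM in large and 6142 to 7069 FPKM in small gonad, and 4 of 10 were lower. The 10 brain markers summed to 36.3 to 40.0 FPKM in large and 43.4 to 52.0 FPKM in small gonad, with 2 of 3 tested lower and gad1, elavl3 and plp1b at 0 counts in both, elavl4 in large and stmn2 in small gonad. The 9 muscle markers summed to 17.1 to 35.0 FPKM in large and 13.99 to 81.3 FPKM in small gonad, with 1 of 7 tested higher and pvalb at 0 counts in both. The 9 immune markers summed to 118 to 122.6 FPKM in large and 57.8 to 93.9 FPKM in small gonad, with mpeg1 at 0 counts in both; of 5 tested, 0 passed with edgeR, 2 had an unadjusted p under 0.05 and 1 passed with DESeq2. The part of these markers in the gonad results was not tested.

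In brain, 0 of the 6 genes passed with edgeR, 0 had an unadjusted p under 0.05 and 0 passed with DESeq2. Over all 16878 genes tested only 2 passed with edgeR, or 0.0118%, and 6.33% had an unadjusted p under 0.05. The gene with the largest difference of the 6 was socs3, with 9.90, 5.24 and 9.37 CPM in large brain, against 15.9, 20.0 and 7.42 CPM in small brain. The third small library lay inside the range of the large ones (-0.83 ± 0.39, adjusted p = 0.807). The most abundant, irs2, had 49.4, 63.9 and 105.0 CPM in large brain, against 65.3, 73.9 and 86.0 CPM in small brain (-0.05 ± 0.26, adjusted p = 0.989). The differences of ghr, ghr-like, igf1r and socs3-like lay between -0.01 and 0.05, with standard errors of 0.21 to 0.32. In the 6 pathway lists 0 genes passed in brain with edgeR. At an unadjusted p under 0.05 stood 4 of 12 cytokine receptors and STAT3 targets, 3 of 11 ligands and targets, 1 of 7 receptors, 1 of 13 JAK and STAT genes, 0 of 23 on the SOCS list and 0 of 34 on the IRS list, and DESeq2 called 2, 1, 0, 0, 0 and 0. Those with the smallest p were cebpd (-1.03, adjusted p = 0.347), cebpb (-1.01, adjusted p = 0.435) and igfbp1a (-2.36, adjusted p = 0.535). The 10 brain markers themselves summed to 5167 to 6928 FPKM in large and 3227 to 4292 FPKM in small brain, the 13 liver markers to 1605 to 4418 FPKM in large and 3126 to 3887 FPKM in small brain, and the 11 blood markers to 979 to 4855 FPKM in large and 1375 to 2992 FPKM in small brain. The 10 ovary markers summed to 14.9 to 80.4 FPKM in large and 3.86 to 11.95 FPKM in small brain, with figla at 0 counts in small brain, and the 5 pancreas markers to 10.2 to 12.6 FPKM in large and 13.1 to 107 FPKM in small brain, with ins at 0 counts in both. Of these lists 0 genes passed with edgeR. At an unadjusted p under 0.05 stood 2 of 10 brain, 5 of 11 liver, 0 of 5 blood, 4 of 5 ovary and 3 of 4 pancreas markers, and DESeq2 called 2, 1, 0, 1 and 1. The 9 immune markers summed to 1881 to 4951 FPKM in large and 2671 to 4179 FPKM in small brain, with mpeg1 at 0 counts in both. Of 8 immune markers tested, 0 passed with edgeR, 1 had an unadjusted p under 0.05 and 1 passed with DESeq2. The part of all these markers in the brain values was not tested.

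If they are separate pools of 2 fish, the 3 libraries of a group use all 6 fish of a size class. The same fish would then enter all 5 tissues, although the labels do not tie them. The fits over all 30 libraries took the libraries as independent and left out any such tie. Such a fit tested whether the size difference itself varied between tissues. It did for ghr-like (adjusted p = 0.00304) and socs3-like (adjusted p = 0.00779), and for ghr (adjusted p = 0.045), in edgeR's F test of 4 contrasts, which 25.9% of the 19511 genes passed. Without the gonad libraries, where ghr was at 0 in small females, ghr no longer passed (adjusted p = 0.207), nor did it without replicate 1 of every group (0.241) or replicate 2 (0.231), while without gonad ghr-like (0.0106) and socs3-like (0.0176) did. The test did not pass for irs2 (adjusted p = 0.0725), igf1r (0.144) or socs3 (0.179). With library totals as the scaling it passed for irs2 (0.00717) and socs3 (0.0402), as it did without replicate 3 (0.0347 and 0.0457). It called socs3-like in 2 of 4 other settings that left out a replicate number or the gonad, since it ended without replicate 1 (0.186) and without replicate 2 (0.0504).

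Averaged over the 5 tissues, both SOCS3 genes were lower in large females, again with libraries taken as independent. For socs3-like the single differences in brain (-0.01) and gonad (0.16) were not lower beyond their errors. The mean difference was -1.31 ± 0.23 for socs3 (adjusted p = 0.000926, edgeR) and -0.68 ± 0.13 for socs3-like (adjusted p = 0.00128), beside 3.47% of the 19511 genes lower and 7.59% higher. For socs3 the difference was below 0 in 5 of 5 tissues, as it was for 4.05% of the 9553 genes tested in all of them, although it passed in 2. Its gonad difference of -0.12 ± 0.44 was smaller than its error and ran from -0.49 to 0.28 in fits without 1 library. Without replicate 1 of every group the averages were -1.16 (adjusted p = 0.0693) and -0.62 (0.0643), and without replicate 2 socs3 had -1.17 (0.0649). For ghr the average was 1.03 ± 0.28 (adjusted p = 0.0206), and it was 0.28 (0.206) without gonad; leaving out replicate 1, 2 or 3 of every group also ended the call (0.112, 0.105 and 0.0907). The averages of ghr-like (0.24), igf1r (0.25) and irs2 (-0.15) did not pass.

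Being lower in large pituitary, liver and muscle at once was uncommon, with 0.581% of the genes tested in liver lower there. This combination was not planned and holds the tissues in which socs3-like passed, so the shares below are a description and no test. Of the 10522 genes tested in all 3 tissues, 3 were lower and past the threshold in each, or 0.0285%: socs3-like, hsd11b2, whose product inactivates cortisol (-2.04, -1.65 and -1.05), and an unnamed locus of the table. In pituitary and muscle together 96 of 12049 genes were, or 0.797%, socs3 and socs3-like among them. These comparisons share no libraries. With 6 fish per size class the same fish may have entered each of them, so they may not be independent. The place of socs3-like rests on its liver call (adjusted p = 0.0476, edgeR), which held in 1 of 6 fits without 1 library. Its pituitary call held in 3 of 6 such fits and its muscle call in 4 of 6.

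**Figure D3:**
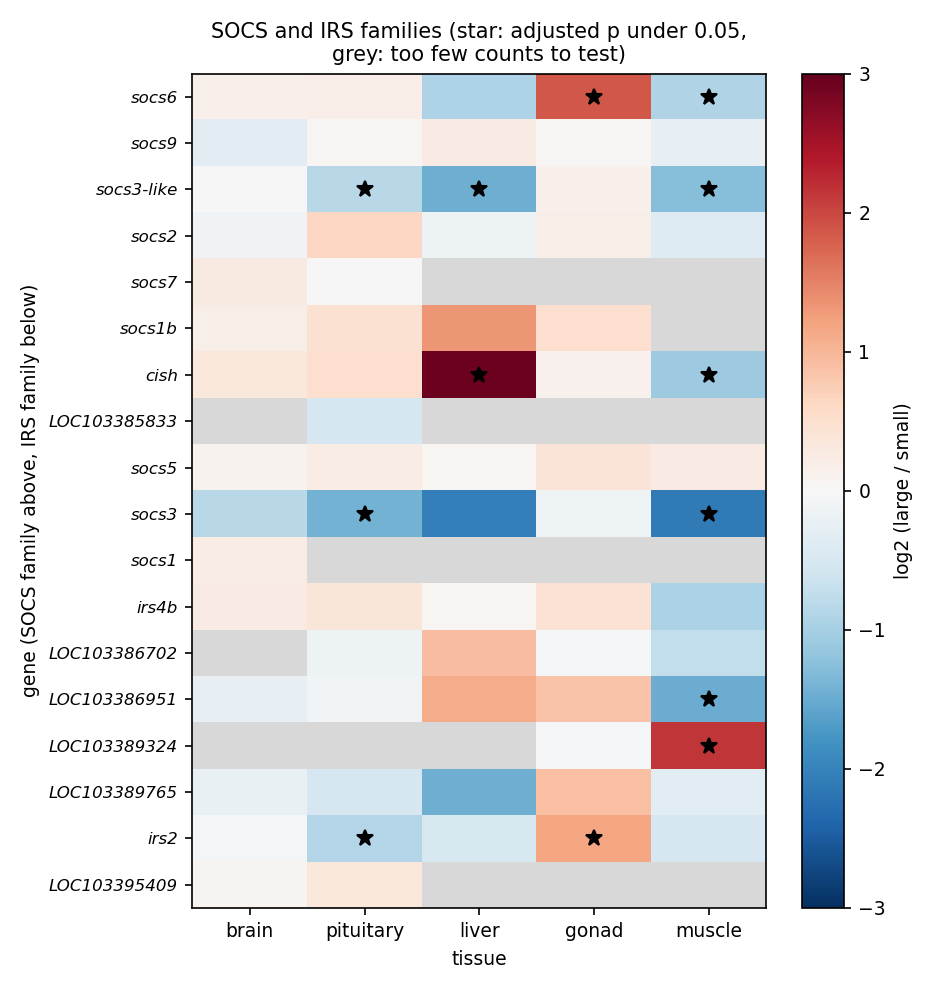
Log2 fold change of large over small females (colour) for the SOCS family genes and the IRS family genes (rows) in each tissue (columns), with stars at an adjusted p under 0.05 and grey where counts were too low to test. The column of muscle has 4 starred SOCS genes that were lower, cish is starred higher in liver at 2.95 and lower in muscle at -1.08, and the brain column has no star.

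Within the SOCS and IRS families, the direction differed from gene to gene and tissue to tissue. The gene cish was higher in large liver and lower in large muscle, and socs6 was higher in large gonad (1.86) and lower in large muscle (-0.91, adjusted p = 0.0322). Another irs2 relative, the irs2-like gene LOC103389765, had a log2 difference of -1.46 in liver (adjusted p = 0.0607) and 0.89 in gonad (adjusted p = 0.0633), neither past the threshold. The socs2 gene, a main brake on growth hormone signalling in mice, did not pass with edgeR in any of the 5 tissues and stood at 0.63 in pituitary (adjusted p = 0.0658), with 5.25 ± 0.53 FPKM in large and 3.28 ± 0.18 FPKM in small pituitary (SD, n = 3 each).

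**Figure D4:**
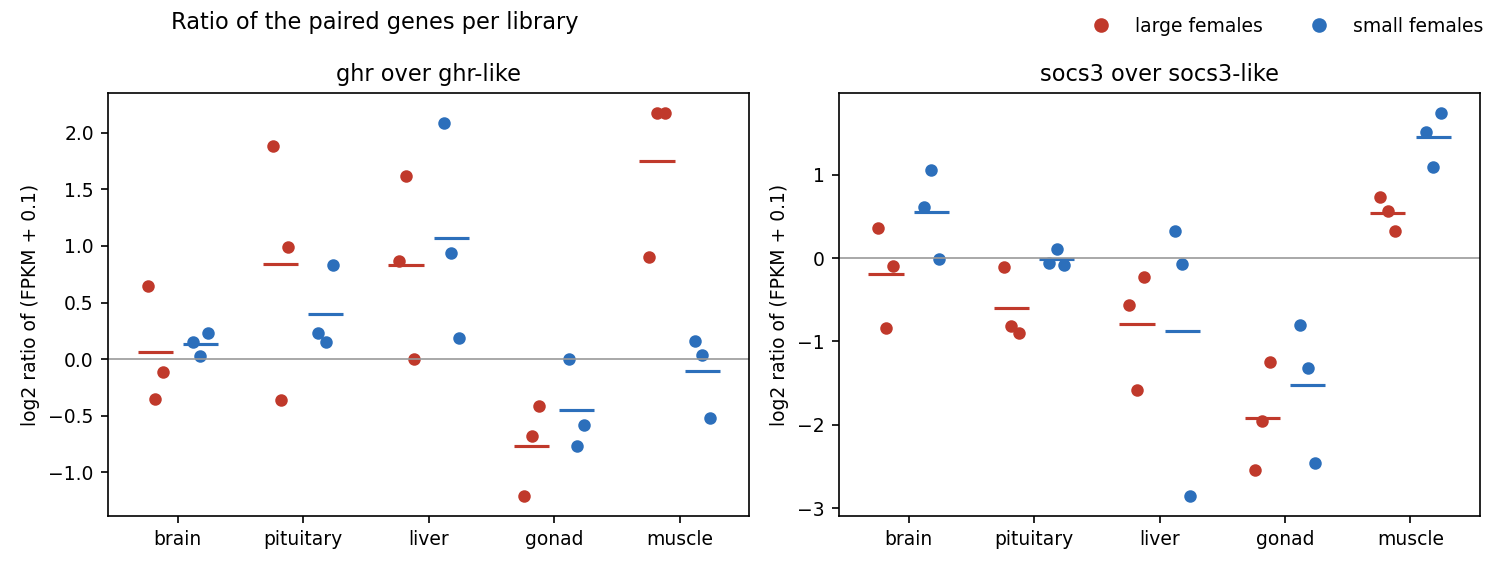
Log2 ratio of (FPKM + 0.1) of ghr over ghr-like (left) and socs3 over socs3-like (right) in each library (points, bars for means of 3), by tissue (horizontal axis), with large females in red to the left of small females in blue. In muscle the large libraries average 1.75 and the small -0.11 for the receptors, and 0.54 and 1.45 for the SOCS3 genes.

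Whether the balance of the SOCS3 copies differed between the size classes could not be decided by the exact permutation test. With 3 against 3 libraries its smallest p lies above the threshold, so no ratio could pass. In muscle and pituitary the ratios did not overlap, narrowly so in pituitary, and in brain, liver and gonad they overlapped. The FPKM ratio of socs3 to socs3-like was 1.71, 1.5 and 1.28 in large muscle, against 2.89, 2.16 and 3.42 in small muscle. In pituitary it was 0.929, 0.565 and 0.530 in large females, against 0.961, 1.07 and 0.947 in small females. Neither set of ratios overlapped between the classes, each with p = 0.10 in the exact permutation test (two-sided), the smallest that 3 against 3 libraries allow, and an adjusted p of 0.333 over the 10 comparisons.

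Genes with the most similar pattern were sought among 16673 genes with a mean of at least 1 FPKM, by Pearson's r of log2 (FPKM + 1) over the 30 libraries, which mainly reflects their shared division into tissues. Closest to ghr were the retinol dehydrogenase 7-like gene LOC103389427 (r = 0.96), slc40a1, an iron exporter (0.94), and serpinf1 (0.94). For ghr-like they were enpp1 (0.92), serpinf1 (0.89) and LOC103389427 (0.89). The levels of igf1r were closest to stx3 (0.96), txlng (0.96) and spop (0.95), and those of irs2 to kif13b (0.97), fryl (0.97) and tmem183a (0.97). For socs3 the values were lower, with igfbp1a, a secreted IGF binding protein, at 0.89, LOC103392637 at 0.84 and LOC103384198 at 0.83. The socs3-like gene was closest to hsp90b1 (0.90), sik2 (0.89) and asmtl (0.87), and its r with socs3 was 0.65.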

How the data were processed

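RNA of 30 libraries, each pooled from 2 female fish, was sequenced, per the labels. The deposited table gives, per the file headers, an FPKM value and an estimated count for 22292 genes in each library; 2.0% of the estimated counts deposited were not whole and all were rounded. The submitters' processing notes name edgeR. How reads were aligned, whether by strand and to which build is not given in the sources used here, and no coordinates are printed. Gene numbers matched RefSeq's Cse_v1.0 gene table for 19502 of 20373. No sequence was available here, so the planned motif search in promoters was not run.

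Size classes were compared per tissue with edgeR 4.0.16 under R 4.3.3 (two-sided quasi-likelihood test, TMM, filterByExpr, Benjamini-Hochberg over all genes tested, threshold 0.05). The 30-library fit gave the test between tissues, the average and the tissue levels. The SE is the log2 fold change over the square root of F. Alternatives were DESeq2 1.42.0, limma 3.58.1 on log2 (FPKM + 1) and (FPKM + 0.1), filtered at 1 FPKM in 3 or more libraries or unfiltered, other scalings, no count filter, a replicate block, summed libraries and leaving out each library. Library totals as the scaling and leaving out the gonad were chosen after seeing the data. Counts of 0 had a floor of 3 counts.

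The 6 genes, the 6 pathway lists, the 8 marker lists and the tests were chosen with earlier results of these data known. Named were the 6 genes, list genes that passed or had the smallest p, and the 3 most similar genes; other list genes, such as socs2, were named after their values were seen. Folds against low counts use library totals times the TMM factors. A list gene in pituitary is not reported here. The scripts were checked on simulated data. Further tools were matplotlib 3.10.9, scipy 1.17.1, pandas 2.3.3 and numpy 2.4.6 under Python 3.11.15.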

Additional observations from a re-analysis of the deposited data

Results flagged for a closer look

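The size difference of ghr varied between tissues in the test over 30 libraries (adjusted p = 0.045); in gonad 9 counts in large females stood against 0 in small, and without gonad the adjusted p was 0.207. For ghr-like the adjusted p of the same test was 0.00304, with -2.32 in muscle and 1.18 in liver. For socs3-like it was 0.00779, with -1.47 in liver and 0.16 in gonad. For irs2, every large library lay above every small one in gonad, where groups did not overlap in 45.9% of the genes tested. These gonad values rest on 66 and 23 counts, and the call held in 1 of 6 fits without 1 library. In pituitary every large irs2 library lay below every small one, where groups did not overlap in 29.5% of the genes tested. The test of the difference between tissues had an adjusted p of 0.0725 for irs2.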

How the results depend on the processing

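Counts of genes past the threshold moved with the setting. In brain (2 with edgeR) DESeq2 gave 94, the fit of 30 libraries 55 and the small libraries summed 0. In pituitary (912) the unfiltered FPKM gave 607, the large libraries summed 4253, the small summed 0 and the fit of 30 libraries 326. In liver (156) DESeq2 gave 765, no count filter 627, FPKM 1149 (pseudocount 1), 841 (0.1) and 24 (no filter), the large libraries summed 0 and the fit of 30 libraries 2473. In gonad (3455) the sums gave 12 (large) and 6808 (small) and the fit of 30 libraries 1888. In muscle (3127) FPKM gave 1506, 1483 and 666, and the sums 6362 (large) and 0 (small). The interaction (5051) fell to 2123 without gonad and the average (2159) to 1248 with library totals. Leaving out 1 library gave 0 to 3 for brain, 129 to 2398 for pituitary, 17 to 1209 for liver, 1134 to 3964 for gonad and 1254 to 3899 for muscle, and leaving out a replicate number 959 to 2816 for the interaction and 413 to 1185 for the average, which stood at 5028 and 1795 without large pituitary library 2. An arm summed to 1 library leaves 1 sample, so the counts from such sums cannot show how far the calls rest on nearly alike libraries.

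Directions of size differences turned where the difference was smaller than its standard error, and not only near 0. With all libraries, ghr-like in pituitary stood at 0.28 ± 0.40 and ghr in muscle at -0.26 ± 0.32. In brain, ghr-like stood at -0.0064 with no count filter, -0.071 on FPKM with and without filter, -0.093 with a pseudocount of 0.1 and -0.0074 with the large libraries summed, and igf1r at -0.064 (both filters) and -0.13 on FPKM. With 30 libraries in 1 fit, ghr (0.0040) and socs3-like (0.0028) turned. Leaving out 1 brain library gave -0.30 to 0.17 for ghr, -0.20 to 0.27 for ghr-like, -0.26 to 0.19 for igf1r, -0.14 to 0.087 for socs3-like and -0.41 to 0.15 for irs2. The same gave -0.085 to 0.24 for igf1r and -0.28 to 0.62 for ghr-like in pituitary, -0.49 to 0.28 for socs3 and -0.11 to 0.63 for socs3-like in gonad and -0.62 to 0.023 for ghr in muscle. On unfiltered FPKM, socs3 in gonad was at 0.081. Without gonad the average of ghr-like was -0.22, and leaving out a replicate number gave -0.42 to 0.014 for irs2. The ratio of ghr to ghr-like in brain ran from -0.012 to 0.19 without 1 library.

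With library totals, levels of brain over liver were 0.16 for socs3; of brain over muscle 1.28 for igf1r, 0.0046 for socs3 and 0.77 for socs3-like; of pituitary over liver 0.60 for socs3, 0.31 for socs3-like and 1.66 for irs2; of pituitary over muscle 0.0078 for ghr, 0.35 for ghr-like, 0.45 for socs3 and 1.78 for socs3-like; and of gonad over muscle 0.22 for socs3-like. Median-of-ratios scaling gave 0.21 for socs3-like in pituitary over muscle and 0.27 for socs3 in liver over muscle. Leaving out a replicate number gave up to 0.51 for socs3-like in pituitary over muscle, -0.18 to 0.34 for socs3 in liver over muscle and -0.0697 to 0.46 for socs3-like in brain over gonad. Only the scaling was changed in the turns with library totals or median-of-ratios. Not all of them began near 0, since with TMM brain over muscle stood at -1.91 for socs3 and -1.13 for socs3-like. What moved the levels without a replicate number was not tested.

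Large and small libraries share only replicate numbers. Deviations of same-numbered libraries had correlations of -0.15 to 0.36 and exceeded 0.1 for every number in no tissue, so the numbers were not taken as pairs. With the replicate block, the counts were 10 for brain, 597 for pituitary, 253 for liver, 2958 for gonad and 2876 for muscle; irs2 in gonad (adjusted p = 0.0926) and the interaction of ghr (0.0589) no longer passed.

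Depth limits ghr and ghr-like in gonad and igf1r in liver, where groups held 0 to 25 counts, and irs2 in gonad, with 23 to 66. Of the 426 checks of the 6 genes within tissues, 343 kept their direction and side of the threshold, 40 lost a call, 10 gained one and 33 turned.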
